A study of Mus musculus with 31 samples.

Results

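The genes described here are 10 that make, divert or use up precursors of nicotinamide adenine dinucleotide (NAD): Afmid, Kmo, Kynu, Haao and Acmsd of the kynurenine pathway, Qprt, Nadsyn1, Naprt and Nampt of NAD synthesis, and Nnmt. They were chosen by symbol from a table of 55487 genes, and all 10 passed the filter on low counts that left 19268 genes for testing. The data are bulk mRNA sequencing of kidneys from 31 male mice on the B6 background, 1 library per animal. Wild type (WT) mice and mice labelled HET for Nbl1, a gene for a secreted antagonist of bone morphogenetic proteins, received cisplatin or phosphate-buffered saline (PBS). The 4 groups were WT with PBS (8 libraries), WT with cisplatin (8), HET with PBS (7) and HET with cisplatin (8). Treatment began at 8 weeks of age and went on for 4 weeks. Kidneys were taken 3 days after it, at an age given as 11 weeks, and how these ages fit together is not settled. Cisplatin is a platinum drug that damages kidney tubules. Neither its dose nor what was done to Nbl1 in the HET mice is given in the sources used here.

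NAD carries electrons in energy metabolism and is consumed as a substrate by sirtuins, poly(ADP-ribose) polymerases and NAD glycohydrolases. It can be built from tryptophan through kynurenine and quinolinic acid (the de novo route), from nicotinic acid (the Preiss-Handler route) or from nicotinamide (the salvage route). The kidney is, with the liver, a main organ of the de novo route, and within the kidney its enzymes belong chiefly to the proximal tubule.

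The promoters of 6 of the 10 genes were used from the RefSeq table of GRCm38.p6, which gives 250 bases before to 50 after each start site. Those of 3 genes are shown because Haao and Kmo had, with Acmsd, the 3 lowest fitted changes with cisplatin, while Nampt was not lower. They lie at chr17:83846741-83847040 on the minus strand (Haao) and, on the plus strand, at chr1:175631943-175632242 (Kmo) and chr12:32820085-32820384 (Nampt), each written 5′ to 3′ along its gene. The start sites of Haao, Kmo and Nampt lie inside the gene bounds of the GENCODE annotation given further on. Capitals mark matches to the letters searched for on both strands: CACGTG (the E-box), AGGTCA (an element of nuclear receptor sites) and CAAAGTC (part of the site of HNF4).
Haao: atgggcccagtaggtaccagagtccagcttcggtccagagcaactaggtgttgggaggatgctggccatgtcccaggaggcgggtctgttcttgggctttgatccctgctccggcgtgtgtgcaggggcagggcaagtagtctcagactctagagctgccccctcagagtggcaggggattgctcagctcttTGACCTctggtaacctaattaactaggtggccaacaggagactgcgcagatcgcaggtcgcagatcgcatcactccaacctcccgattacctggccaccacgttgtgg
Kmo: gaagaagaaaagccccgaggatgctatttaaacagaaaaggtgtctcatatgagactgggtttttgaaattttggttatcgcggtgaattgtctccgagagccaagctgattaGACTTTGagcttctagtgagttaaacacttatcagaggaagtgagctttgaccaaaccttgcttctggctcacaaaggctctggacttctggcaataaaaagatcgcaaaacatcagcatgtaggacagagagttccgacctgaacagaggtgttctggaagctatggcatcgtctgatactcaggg
Nampt: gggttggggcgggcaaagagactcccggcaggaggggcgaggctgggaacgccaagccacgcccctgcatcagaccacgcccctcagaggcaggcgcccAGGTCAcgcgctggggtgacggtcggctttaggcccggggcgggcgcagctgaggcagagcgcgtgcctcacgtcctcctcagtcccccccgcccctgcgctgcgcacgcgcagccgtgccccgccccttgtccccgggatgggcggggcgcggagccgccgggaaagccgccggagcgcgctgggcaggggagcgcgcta
The Haao window holds AGGTCA at position -58 from the start site, and Kmo holds CAAAGTC at -137, both read on the opposite strand and with no other match to overlap. The Nampt window holds AGGTCA at -151 and differs from the other 2 in base composition, with 76.33% G and C against 58.67% in Haao and 44.33% in Kmo, where the median of all 32851 promoters is 52.67%. None of the 3 sets of letters stands in the windows of Afmid, Qprt and Nadsyn1. Of all promoters in the table, 7.15% hold CACGTG, 16.26% AGGTCA and 4.44% CAAAGTC, so a match to AGGTCA is common and one to CAAAGTC less so. These matches describe the sequence only.

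Total counts ranged from 24650858 to 37301170 per library, and no pair of libraries was identical. Kidney tubule genes were abundant: 18 proximal tubule markers summed to 26750 to 30750 CPM (counts per library total after TMM scaling, the trimmed mean of M values, which applies to every CPM below unless library totals are named) in the PBS libraries and 3391 to 15940 CPM in the cisplatin libraries. All 10 genes of a tubular injury panel rose in both genotypes. The libraries labelled HET PBS 1 and 6 and HET cisplatin 3 and 4 held almost no Nbl1 (0.107, 0.434, 1.08 and 0.861 CPM), and the one labelled WT PBS 6 was at 3.71 CPM, below the 5.83 to 7.90 of the remaining WT PBS libraries, so these 5 go against their genotype label at this gene. WT cisplatin 6 was also low in Nbl1 for its group, at 10.66 CPM where the other WT cisplatin libraries held 18.1 to 26.2. That value lay inside the HET cisplatin range of 0.861 to 13.9. It is not among the 5 and stayed in the fits that left them out. Libraries WT cisplatin 6 and HET cisplatin 6 lay nearest to the PBS libraries on the first principal component, at 25.25 and 15.85 where the other cisplatin libraries lay from 42.95 to 78.87. In whole kidney, fewer cells of a type and less RNA per cell cannot be told apart, and this holds for every value that follows.

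Per transcript length, Haao of the de novo route was the most abundant of the 10 genes under PBS, and Kynu and Nnmt were the least. Mean deposited TPM (transcript abundance scaled for length and library total) in WT PBS was 70.2 ± 6.3 for Haao (SD, n = 8), which oxidises 3-hydroxyanthranilic acid, and 33.0 ± 2.4 for Kmo, which makes 3-hydroxykynurenine. Nampt, the rate-limiting enzyme of nicotinamide salvage, stood at 30.2 ± 2.9 TPM, Acmsd at 25.4 ± 4.5, Afmid at 24.5 ± 0.75 and Qprt at 17.9 ± 1.8. The Haao libraries lay above all others, and the Qprt libraries lay below those of Afmid. The ranges of Kmo, Nampt, Acmsd and Afmid overlapped from one neighbour to the next, so their order is only partly resolved. Afmid ended at 25.4 TPM, below all Nampt (from 26.6) and Kmo (from 29.95) libraries. Acmsd, which began at 20.5, also overlapped Qprt, which ended at 21.0. Naprt (8.51 ± 0.85 TPM) and Nadsyn1 (6.65 ± 1.0 TPM) were lower and overlapped each other, and Kynu (1.3 ± 0.33 TPM) and Nnmt (0.635 ± 0.13 TPM) were lowest, with no overlap between them.

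Under cisplatin the order changed. In WT, Nampt was on top at 53.3 ± 8.0 TPM (SD, n = 8), and its lowest library, at 44.8, lay above the highest Haao library, at 29.3. Haao had a mean of 13.6 ± 8.1 TPM, Kmo of 9.30 ± 3.5, Qprt of 8.63 ± 3.7, Naprt of 7.81 ± 1.4 and Afmid of 7.81 ± 2.6. Nadsyn1 at 5.29 ± 0.77, Acmsd at 5.27 ± 6.8, Kynu at 4.71 ± 3.7 and Nnmt at 1.96 ± 0.61 TPM made up the rest. Apart from Nampt, each gene overlapped its neighbours in this order. HET kidneys given cisplatin had the same gene on top, with Nampt at 55.2 ± 8.6 TPM and Haao next at 17.1 ± 7.8 (SD, n = 8).

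The first question was how cisplatin changed these genes in each genotype. Of the 10, 7 fell in WT (Afmid, Kmo, Haao, Acmsd, Qprt, Nadsyn1 and Naprt) and 3 rose (Kynu, Nampt and Nnmt), by edgeR's quasi-likelihood test with adjusted p below 0.05 over all tested genes. The background was high: 63.2% of all tested genes passed in WT, 33.6% as higher and 29.6% as lower. In HET, the same 7 symbols fell and Kynu and Nnmt rose, against 59% of all genes, 31% higher and 28% lower. In WT, 7 genes fell and 1 rose (Nnmt) with no overlap in CPM between the groups, where 17.4% of all genes lay wholly lower and 14.4% wholly higher. In HET, 6 fell without overlap (Nadsyn1 overlapped), against 14.9% of all genes wholly lower and 11% wholly higher. These overlaps depend on the scale. In CPM on library totals 5 lay wholly lower and 2 wholly higher in each genotype, against 8.17% of all genes lower and 34.9% higher in WT and 6.7% and 32.1% in HET. In deposited TPM 3 lay wholly lower in WT (Afmid, Kmo and Haao) and 5 in HET (also Acmsd and Qprt), and 2 wholly higher in each, against 6.16% of all genes lower and 33% higher in WT and 5% and 31.6% in HET. On both of those scales the 2 wholly higher genes were Nampt and Nnmt. The WT counts stood at 7 lower and 3 higher, and the HET counts at 7 lower and 2 higher, also without the 2 cisplatin libraries nearest to PBS and without the 5 libraries that go against their label.

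**Figure D1:**
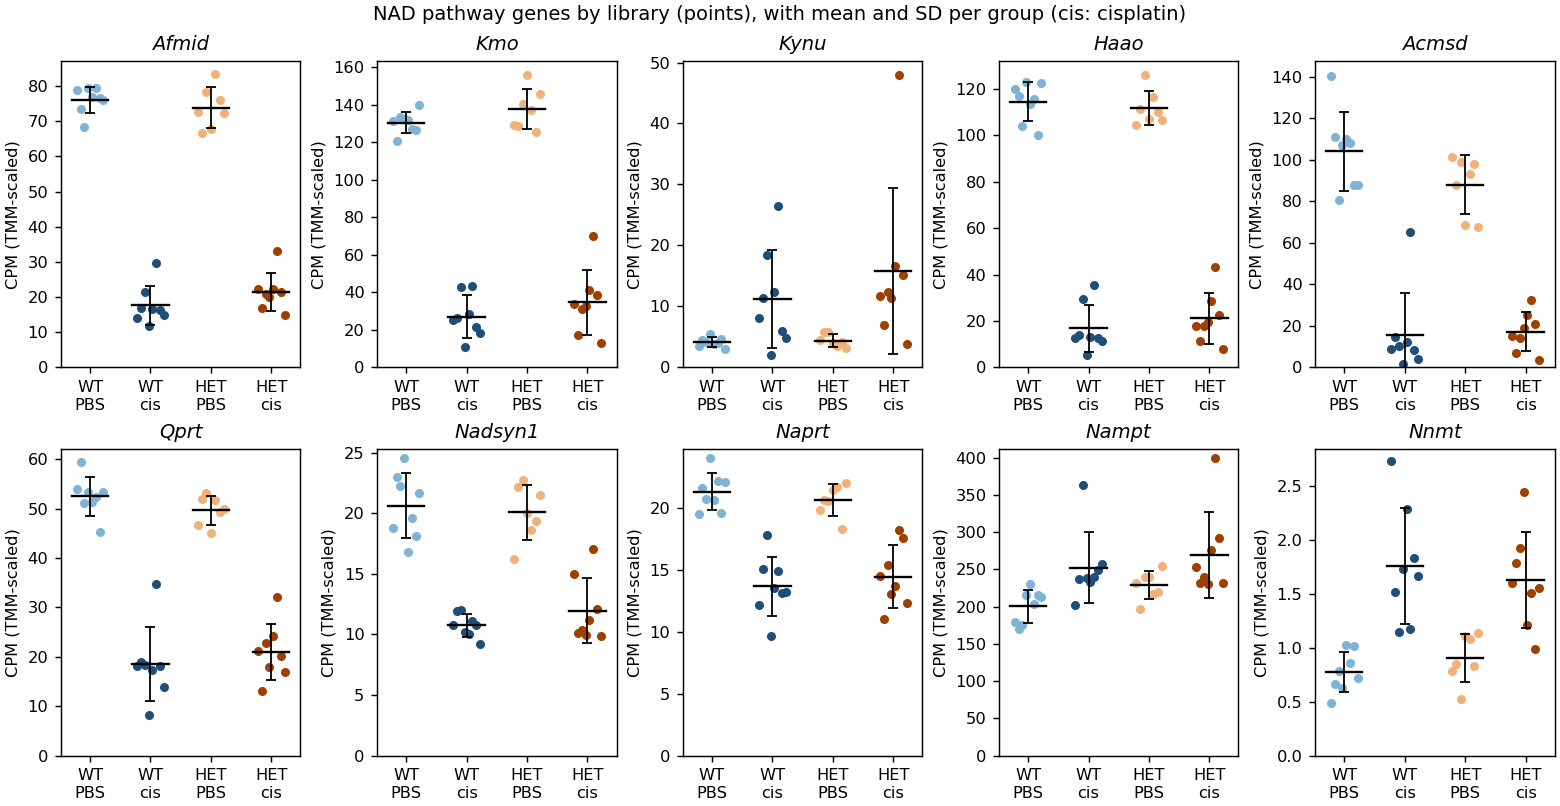
Level of each of the 10 genes in CPM (y axis, linear, from 0) in the 4 groups; each point is 1 library, the long bar is the group mean and the error bar 1 SD. Afmid, Kmo, Haao, Acmsd, Qprt and Naprt are lower in every cisplatin library than in every PBS library of their genotype on this TMM scale, which for Naprt does not hold on library totals or in TPM, nor for Acmsd and Qprt in WT in TPM, nor for Acmsd in WT on library totals, while Kynu spreads from 2.075 to 47.94 CPM within the cisplatin groups.

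Afmid (ENSMUSG00000017718, chr11:117825924-117839908, plus strand of GRCm38) encodes the formamidase that releases kynurenine from N-formylkynurenine. Its level ran from 68.5 to 79.6 CPM (median 76.7) in WT PBS and from 11.9 to 29.6 (median 16.5) in WT cisplatin, and in HET from 66.6 to 83.5 (median 72.6) under PBS and from 14.96 to 33.0 (median 21.1) under cisplatin. Every cisplatin library was below every PBS library. The log2 fold change was −2.10 in WT (SE 0.138, adjusted p = 3.53e-14) and −1.79 in HET (SE 0.139, adjusted p = 2.29e-12). Afmid shares 44.25% of its exon bases with Gm20708 on the same strand and 2.345% with Tk1 on the other, so its counts may hold reads of those genes.

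Kmo (ENSMUSG00000039783, chr1:175620381-175662116, plus strand), the kynurenine monooxygenase of the outer mitochondrial membrane, ran from 120.7 to 139.6 CPM (median 131.7) in WT PBS and from 10.8 to 43.3 (median 25.9) in WT cisplatin. In HET it ran from 125.7 to 156 (median 137.4) under PBS and from 12.9 to 70.2 (median 33.1) under cisplatin. The groups were far apart in both genotypes, with a log2 fold change of −2.26 in WT (SE 0.241, adjusted p = 1.35e-09) and −1.99 in HET (SE 0.243, adjusted p = 2.74e-08). Haao (ENSMUSG00000000673, chr17:83831156-83847963, minus strand), whose product turns 3-hydroxyanthranilic acid into the unstable precursor of quinolinic acid, had the lowest fitted fold change of the 10 in both genotypes, close to that of Acmsd. It ran from 99.99 to 123.2 CPM (median 116.3) in WT PBS and from 5.38 to 35.8 (median 12.9) in WT cisplatin, and its log2 change was −2.77 (SE 0.283, adjusted p = 5.75e-10). In HET, 104.4 to 126 CPM (median 110.0) stood against 7.81 to 43.2 (median 18.7), and the log2 change was −2.41 (SE 0.283, adjusted p = 1.3e-08). The highest cisplatin library of Kmo and Haao in each genotype was replicate 6, one of those nearest to PBS, and the lowest was WT cisplatin 4 or HET cisplatin 8.

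Acmsd (ENSMUSG00000026348, chr1:127729413-127767978, plus strand) encodes the decarboxylase that diverts that same precursor away from quinolinic acid and NAD. It ran from 80.6 to 140.4 CPM (median 107.6) in WT PBS and from 1.667 to 65.1 (median 9.62) in WT cisplatin, and from 67.8 to 101.5 (median 93.3) in HET PBS and 3.73 to 32.6 (median 17.2) in HET cisplatin. The log2 fold change was −2.73 in WT (SE 0.449, adjusted p = 3.87e-06) and −2.36 in HET (SE 0.451, adjusted p = 4.15e-05). The groups did not overlap in CPM, yet 1 library sets much of the WT value: WT cisplatin 6 held 65.1 CPM where the next held 14.5, and on library totals (73.3 CPM) and in TPM (21.8) it lay inside the WT PBS range. Leaving out the 2 libraries nearest to PBS moved the WT value to −3.58 and the HET value to −2.55. Acmsd shares 3.32% of its exon bases with the antisense gene 2900009J06Rik.

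Kynu (ENSMUSG00000026866, chr2:43555329-43682715, plus strand), the kynureninase that acts between Kmo and Haao, went the other way. It ran from 3.11 to 5.54 CPM (median 4.10) in WT PBS and from 2.075 to 26.5 (median 9.83) in WT cisplatin, and from 3.11 to 5.79 (median 4.21) in HET PBS and 3.79 to 47.9 (median 12.1) in HET cisplatin. The groups overlapped in both genotypes, since the lowest cisplatin libraries lay within or below the PBS range. The log2 fold change was 1.43 in WT (SE 0.395, adjusted p = 0.00219) and 1.84 in HET (SE 0.415, adjusted p = 0.00032). Without the 2 libraries nearest to PBS it was 1.12 (adjusted p = 0.00183) in WT and 1.34 (adjusted p = 0.000478) in HET. With limma voom the WT change was 1.08 and did not pass (adjusted p = 0.0526).

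Qprt (ENSMUSG00000030674, chr7:127107114-127122226, minus strand) encodes quinolinate phosphoribosyltransferase, the enzyme that commits quinolinic acid to NAD. It ran from 45.2 to 59.5 CPM (median 52.8) in WT PBS and from 8.21 to 34.8 (median 18.1) in WT cisplatin, and from 45.0 to 53.1 (median 49.8) in HET PBS and 13.0 to 32.0 (median 20.6) in HET cisplatin. Each cisplatin library lay below each PBS library of its genotype in CPM, although in TPM the highest WT cisplatin library (16.6) lay inside the WT PBS range of 14.9 to 21.0. The test gave a log2 fold change of −1.51 in WT (SE 0.17, adjusted p = 4.31e-09) and −1.24 in HET (SE 0.173, adjusted p = 3e-07). Qprt thus fell by less than Haao, Kmo and Acmsd in the fitted values, a difference tested for Acmsd below.

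The enzymes of the later and parallel steps moved less. Nadsyn1 (ENSMUSG00000031090, chr7:143795584-143822849, minus strand), the NAD synthetase that ends the de novo and Preiss-Handler routes, ran from 16.8 to 24.5 CPM (median 20.7) in WT PBS and from 9.23 to 12.02 (median 10.8) in WT cisplatin. Its log2 fold change was −0.94 in WT (SE 0.103, adjusted p = 2.61e-09) and −0.75 in HET (SE 0.105, adjusted p = 3.41e-07), where HET cisplatin 6, at 17.1 CPM, lay inside the PBS range of 16.3 to 22.8. Naprt (ENSMUSG00000022574, chr15:75890956-75894481, minus strand), which starts the Preiss-Handler route from nicotinic acid, ran from 19.6 to 24.1 CPM (median 21.2) in WT PBS and from 9.65 to 17.9 (median 13.4) in WT cisplatin. Its log2 fold change was −0.64 in WT (SE 0.0945, adjusted p = 6.52e-07) and −0.51 in HET (SE 0.0971, adjusted p = 3.46e-05), where 18.3 to 22.1 CPM under PBS stood against 11.01 to 18.3 under cisplatin with no overlap. For Naprt that separation held only after TMM scaling. In deposited TPM 7.49 to 9.59 under PBS overlapped 4.84 to 9.23 under cisplatin in WT, and 7.61 to 8.85 overlapped 6.73 to 9.04 in HET, and on library totals the groups overlapped too. Naprt shares 11.82% of its exon bases with Eef1d on the same strand.

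The size of these smaller changes depended on the scaling. Scaling by library totals in place of TMM moved the median log2 fold change of all genes up by 0.3935 in WT and 0.4049 in HET, and the share of called genes that were higher from 53.14% to 80.52% and from 52.58% to 83.32%. Under library totals Naprt was at −0.25 in WT and at −0.12 in HET, where it no longer passed (adjusted p = 0.212). On log2(TPM + 1) with limma, Naprt did not pass in WT (−0.12, adjusted p = 0.181) or HET (−0.035, adjusted p = 0.723), nor did Nadsyn1 in HET (−0.23, adjusted p = 0.0594). Afmid, Kmo, Haao, Acmsd and Qprt passed as lower in both genotypes under every alternative scaling and filter run.

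**Figure D2:**
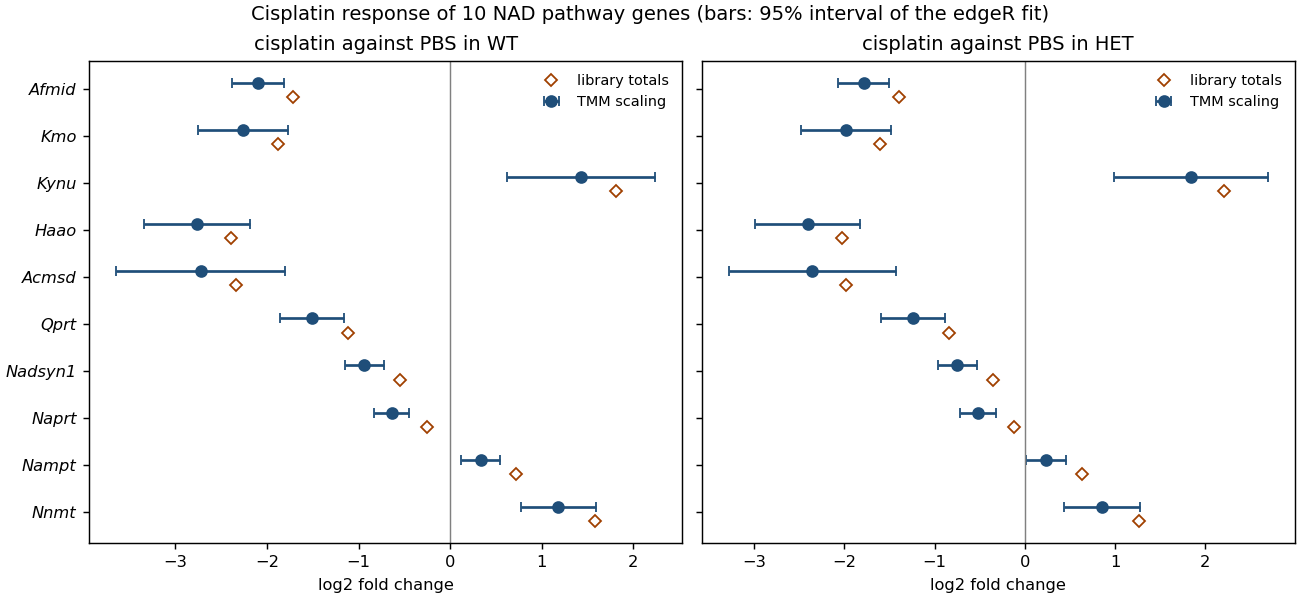
Log2 fold change of cisplatin against PBS (x axis) for each gene in WT (left) and HET (right); filled circles are the TMM-scaled edgeR estimates with 95% intervals and open diamonds the same fit scaled by library totals. The diamonds sit to the right of the circles throughout; in HET this puts Naprt at −0.12 and Nampt at 0.63.

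Nampt (ENSMUSG00000020572, chr12:32819545-32853349, plus strand) ran from 169.8 to 230.8 CPM (median 207.6) in WT PBS and from 202 to 363.6 (median 238.8) in WT cisplatin. In HET it ran from 197 to 254.4 (median 231.6) under PBS and from 230.3 to 399.8 (median 245.8) under cisplatin. The groups overlapped in both genotypes on this scale, and a single library stood above the rest in each cisplatin group. On the other scales they were apart: in deposited TPM Nampt ran from 26.6 to 34.2 in WT PBS and from 44.8 to 70.8 in WT cisplatin, and from 29.0 to 39.1 in HET PBS and 47.8 to 73.9 in HET cisplatin. In CPM on library totals the WT PBS libraries ended at 195.8 and the WT cisplatin libraries began at 240.2, and in HET these bounds were 221.2 and 260. The log2 fold change was 0.33 in WT (SE 0.105, adjusted p = 0.00672). In HET it was 0.24 (SE 0.109, adjusted p = 0.0631), with an unadjusted 95% interval from 0.012 to 0.46, and did not pass. The HET value passed under library totals (0.63, adjusted p = 3.99e-07) and on log2(TPM + 1) (0.71, adjusted p = 5.26e-08), and was 0.13 (adjusted p = 0.225) without the 2 libraries nearest to PBS. Among the animals of the number range that starts at 600, described below, the WT value was 0.29 and did not pass (adjusted p = 0.0953).

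Nnmt (ENSMUSG00000032271, chr9:48591877-48605153, minus strand) encodes the methyltransferase that removes nicotinamide from salvage. It was near the lower end of detection, with 14 to 29 counts per library in WT PBS and 33 to 83 in WT cisplatin. Its level was 0.491 to 1.02 CPM (median 0.752) in WT PBS and 1.15 to 2.73 (median 1.70) in WT cisplatin, with no overlap, and 0.52 to 1.14 (median 0.845) in HET PBS and 0.993 to 2.44 (median 1.58) in HET cisplatin, with overlap that was absent on library totals and in TPM. The log2 fold change was 1.18 in WT (SE 0.201, adjusted p = 5.96e-06) and 0.85 in HET (SE 0.207, adjusted p = 0.000675). Some adipocyte and most fibroblast markers rose too, where 33.6% of all genes were higher in WT and 31% in HET. Of 6 tested adipocyte markers 3 rose in WT and 4 in HET, and the rest did not pass. Median Ucp1 went the other way, from 6.415 to 2.07 CPM in WT and from 7.59 to 5.50 in HET. Median Adrb3 did so in WT only (0.471 to 0.228). The summed adipocyte level was 1.09 to 47.6 CPM in WT PBS and 20.1 to 164 in WT cisplatin. In HET it was 2.30 to 51.4 under PBS and 11.0 to 134.4 under cisplatin. Of 7 fibroblast markers 5 rose in WT and 6 in HET, with summed levels of 243.5 to 409.1 CPM under PBS and 254.7 to 866.1 under cisplatin. Their part in the Nnmt change was not tested. Of 6 hepatocyte markers 4 fell in each genotype and 2 did not pass, where 29.6% of all genes were lower in WT and 28% in HET. Most of their level lay in Cyp2e1 and Apob, with medians of 1442 and 850.6 CPM in WT PBS, where Apoa1 had 0.382. Which cells held these transcripts was not tested. Alb, the defining one, ran from 6.14 to 17.5 CPM under PBS and from 0.305 to 9.94 under cisplatin. Median Serpina1a went from 27.9 to 28.7 CPM in WT and from 30.3 to 37.75 in HET.

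Animal numbers fell partly with the groups: all 8 HET cisplatin animals have titles in a number range that starts at 600, which holds 4 of 8 WT PBS, 6 of 8 WT cisplatin and 4 of 7 HET PBS. Within that range Haao changed by −2.66 in WT and −2.39 in HET, Kmo by −2.25 and −2.03, Afmid by −2.07 and −1.81, Acmsd by −2.53 and −2.25, and Qprt by −1.46 and −1.22. Kynu changed by 1.59 and 2.09, and Nnmt by 0.85 and 0.64. In that range 2 genes passed as higher and 7 as lower in each genotype, Nampt being the gene that no longer passed in WT.

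Transcripts of gene pairs were compared within each library as the log2 ratio of deposited TPM, with 0.1 added, in two-sided exact permutation tests adjusted over 12 tests. Neither enzyme amounts nor flux through the routes were measured. The ratio of Nampt to Qprt, a salvage gene against a de novo gene, ran from 0.38 to 1.11 in WT PBS and from 1.55 to 3.68 in WT cisplatin, with means of 0.75 ± 0.25 and 2.71 ± 0.63 (SD, n = 8 each). In HET it ran from 0.76 to 1.23 under PBS and 2.24 to 2.98 under cisplatin. No library overlapped: the difference was 1.95 in WT (exact permutation p = 0.0001554, the smallest this design can give, adjusted p = 0.00124) and 1.501 in HET (exact permutation p = 0.0003108, likewise the smallest, adjusted p = 0.00124). HET and WT differed by 0.25 under PBS (exact permutation p = 0.0435, adjusted p = 0.087), which did not pass.

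The products of Acmsd and Qprt act on either side of the branch towards NAD, and the ratio of their transcripts also moved. It ran from 0.18 to 0.87 in WT PBS and from −2.60 to 0.39 in WT cisplatin, where WT cisplatin 6 alone lay inside the PBS range. The difference was −1.78 in WT (exact permutation adjusted p = 0.0014) and −1.296 in HET (exact permutation adjusted p = 0.00124), where the groups did not overlap. Acmsd transcripts fell further than Qprt transcripts in both genotypes. In the number range from 600 the WT difference was −1.81 and did not pass (exact permutation adjusted p = 0.0572). The ratio of Nnmt to Nampt was higher by 0.64 in WT (exact permutation adjusted p = 0.0228), with overlap, and by 0.41 in HET (exact permutation adjusted p = 0.223), which did not pass. With 1 TPM added in place of 0.1 the WT value was 0.041 (exact permutation adjusted p = 0.809). Nnmt itself lies at 0.48 to 2.99 TPM in the WT libraries.

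**Figure D3:**
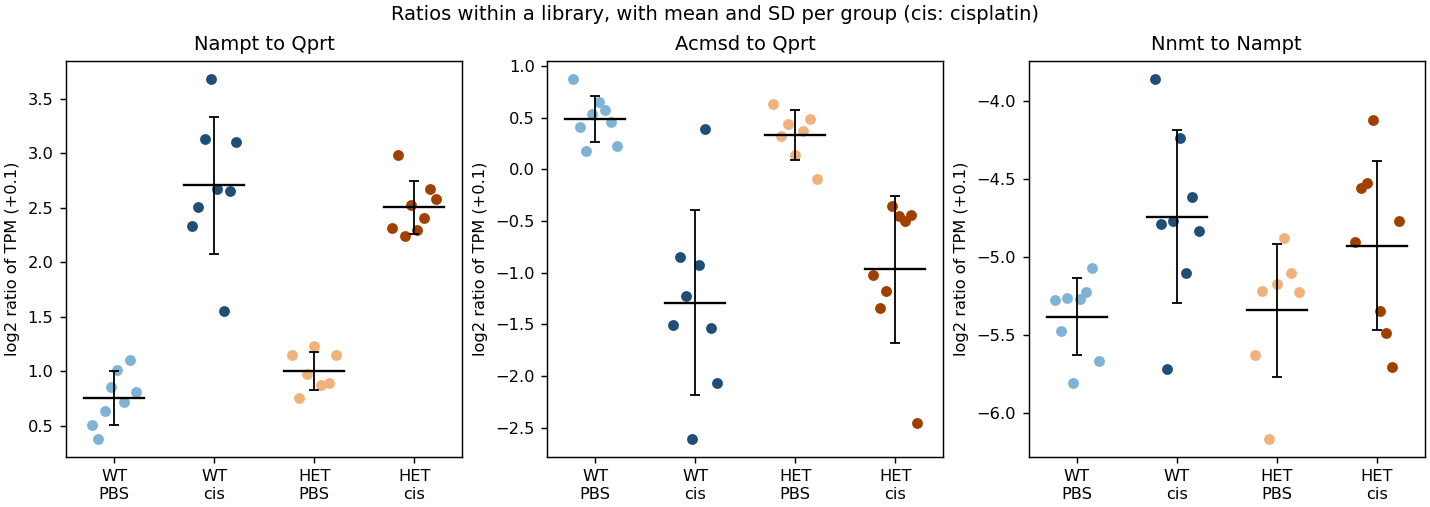
Log2 ratio of TPM within a library (y axis) for 3 gene pairs in the 4 groups; points are libraries, the long bar is the mean and the error bar 1 SD. For Nampt to Qprt the PBS libraries end at 1.23 and the cisplatin libraries begin at 1.55, while for Nnmt to Nampt the groups overlap.

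Cisplatin kidneys differed widely among themselves, so each gene was set against the proximal tubule score, the mean log2 CPM of 18 tubule markers that include none of the 10 genes. The score ran from 9.34 to 9.54 in WT PBS and 9.36 to 9.53 in HET PBS, from 5.24 to 7.93 in WT cisplatin and from 5.57 to 8.06 in HET cisplatin. Relations were computed only within each cisplatin group (8 libraries) and adjusted over 20 exact permutation tests. Kmo followed the score with r = 0.977 in WT (rho = 0.976) and 0.984 in HET (rho = 0.929), Haao with 0.983 (rho = 0.952) and 0.979 (rho = 0.976), and Acmsd with 0.920 (rho = 0.881) and 0.989 (rho = 0.976). Afmid had r = 0.945 (rho = 0.952) and 0.920 (rho = 0.833). The adjusted exact permutation p of r was 0.000248 for Kmo in WT, 0.000567 for Haao in WT, 0.00866 for Acmsd in WT and 0.00524 for Afmid in HET. Raw exact permutation p-values of these r ran from 4.96e-05 (Kmo in WT) to 0.00454 (Acmsd in WT). Gene and score come from the same libraries and share their scaling.

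Kynu, the gene that rose, showed the same relation within the cisplatin groups, with r = 0.972 in WT (rho = 0.976, adjusted exact permutation p = 0.000248) and 0.958 in HET (rho = 0.929, adjusted exact permutation p = 0.000567). Its highest values, 26.5 CPM in WT cisplatin 6 and 47.9 CPM in HET cisplatin 6, were in the libraries with the highest score, and its lowest, 2.075 CPM in WT cisplatin 4, was in the library with the lowest. So Kynu was higher in cisplatin than in PBS kidneys, while among cisplatin kidneys it was highest where tubule genes were closest to the PBS level. Without the 2 libraries farthest from the median score, r was 0.911 in WT and 0.951 in HET. Kynu is also known from macrophages. Of their 10 markers 9 rose in WT and 8 in HET, where 33.6% and 31% of all genes were higher, and 1 fell in each. Median Csf1r went from 53.0 to 32.5 CPM in WT and from 53.6 to 30.4 in HET. It held much of the summed level of the 10 markers under PBS, whose medians were 97.3 CPM in WT and 97.8 in HET. That sum was 88.4 to 109.4 CPM under PBS and 107.1 to 215.3 in WT cisplatin. HET cisplatin 6, the library highest in Kynu, had the lowest macrophage sum of all 31 libraries at 39.4 CPM, where the other HET cisplatin libraries had 121.1 to 181.8. WT cisplatin 6, highest in Kynu among the WT libraries, had a macrophage sum of 161.1 CPM, inside the range of its group. The part of macrophages in the Kynu change was not tested.

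Qprt (r = 0.926 in WT and 0.768 in HET) and Naprt (0.837 and 0.754) also passed in both groups, with adjusted exact permutation p of 0.00866 and 0.0403 for Qprt and 0.0313 and 0.0403 for Naprt. By Spearman's rho Naprt in HET (0.714) did not pass (adjusted exact permutation p = 0.0768). Without the 2 libraries farthest from the median score, r fell to 0.526 for Qprt and 0.558 for Acmsd in WT, and for the other passing relations it stayed between 0.708 (Naprt in HET) and 0.986 (Acmsd in HET). The relations were also computed without replicate 6 of each group, the library nearest to PBS. Qprt and Acmsd in WT then had r = 0.871 and 0.864, both with an adjusted exact permutation p of 0.0241, while Naprt (0.637) and Qprt (0.636) in HET no longer passed. By rho Naprt, Qprt and Acmsd in WT and Afmid and Qprt in HET no longer passed either, with adjusted exact permutation p from 0.0529 (Naprt in WT) to 0.169 (Qprt in HET). When the 2 libraries farthest from the median of those 7 were also left out, r over the remaining 5 was 0.0134 for Afmid, 0.00488 for Qprt and 0.0586 for Naprt in HET and 0.276 for Naprt in WT. The scores of those 5 span only 6.99 to 7.41 in HET and 6.19 to 6.825 in WT. These 4 relations were thus not seen over that narrow range, and so few libraries cannot show what they rest on. Over the same 5, r was 0.70 for Qprt, 0.553 for Afmid and 0.89 for Acmsd in WT, and from 0.757 (Haao in WT) to 0.941 (Acmsd in HET) for Kmo, Haao and Kynu in both groups and Acmsd in HET. Nadsyn1 (0.507 and 0.619), Nampt (0.333 and 0.731) and Nnmt (−0.488 and −0.179) did not pass in either group, with adjusted exact permutation p of 0.0595 for Nampt in HET as the lowest. Within the 6 WT cisplatin animals of the number range from 600, r was 0.985 for Kmo, 0.983 for Haao, 0.988 for Kynu and −0.581 for Nnmt.

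**Figure D4:**
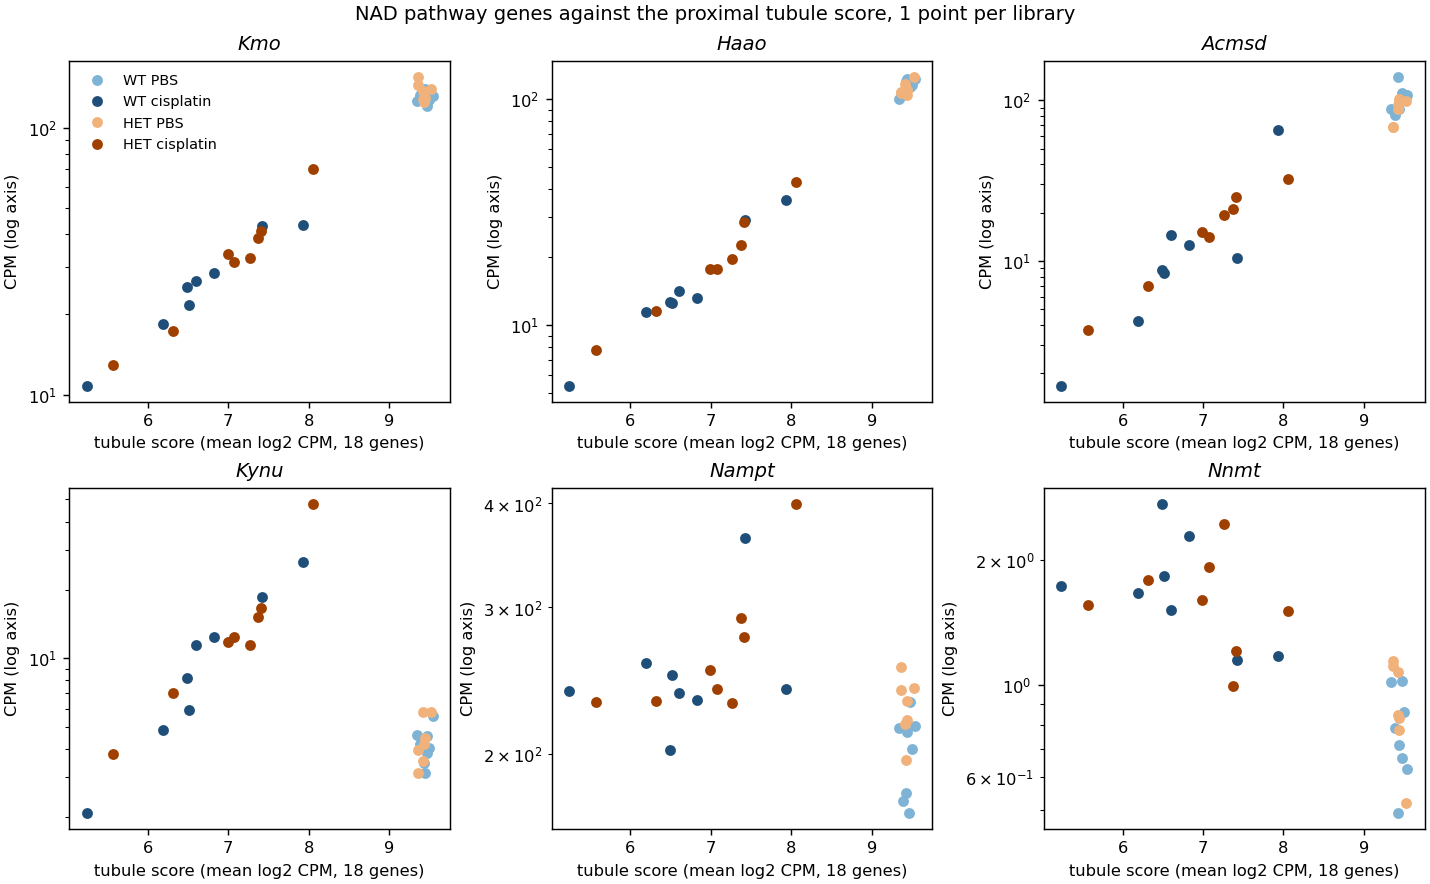
CPM of 6 genes (y axis, log scale) against the proximal tubule score (x axis, mean log2 CPM of 18 tubule genes), 1 point per library, coloured by group. Kmo, Haao and Acmsd lie along a rising line that points towards the PBS cluster. Kynu lies above its PBS level of 3.11 to 5.79 CPM in the cisplatin libraries with scores from 6.315 upwards, and is highest at scores near 8.

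Genes whose pattern was most like each of the 10 were found by Pearson r of log2 CPM, as deviations from the group mean, over 31 libraries and 13181 genes. These are descriptions, and all libraries share the same scaling. Among the genes nearest to Kmo was Hgd (r = 0.976), homogentisate dioxygenase. Haao was most like Ugt3a1 (0.982), Slc22a6 (0.977), the basolateral organic anion transporter of the proximal tubule, and Khk (0.9753), ketohexokinase. Acmsd was nearest to Miox (0.969), the tubular myo-inositol oxygenase, Kynu to Slc7a7 (0.962), and Qprt to Slc47a1 (0.938). Nampt was nearest to Insr (0.833), Glud1 (0.831) and Bnip3 (0.828), and Nnmt to Aifm2 at 0.673. Among the 10 themselves, Kmo and Haao were the closest pair (r = 0.954), and Haao and Nnmt were the most opposed (−0.39).

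The second question was whether the Nbl1 genotype changed these genes. No gene of the 10 passed between HET and WT under PBS (0% of all tested genes did), under cisplatin (0.00519% did, 1 gene) or in the difference of the cisplatin response (0%), by edgeR's quasi-likelihood test. None of the 10 had an unadjusted p below 0.05 in any of the 3 comparisons, where 968, 1066 and 1079 of all genes did, and DESeq2 called none of the 10 (5, 1 and 0 of all genes). Nearest to passing was Afmid under cisplatin, at a log2 difference of 0.27 (HET minus WT; SE 0.134, edgeR adjusted p = 0.886). In each of the 10 the HET and WT libraries overlapped under both treatments, where 0.0156% of all genes lay wholly higher and 0.0208% wholly lower in HET under PBS, and 0.00519% and 0.0104% under cisplatin. The precision differed between genes. For Nadsyn1 the 95% interval of the difference in response between HET and WT ran from −0.12 to 0.49 and for Naprt from −0.15 to 0.40. For Acmsd it ran from −0.88 to 1.62 and for Kynu from −0.74 to 1.56, so sizeable differences in these genes were not detectable with these animals. Without the 5 libraries that go against their genotype label, none of the 10 passed either, with Kynu at 0.60 and Afmid at 0.30 under cisplatin.

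Other genes of NAD metabolism were listed by role, and their counts are to be read against the shares of all tested genes, 33.6% higher and 29.6% lower in WT and 31% and 28% in HET. Of 54 tested genes among 58 listed, the WT comparison had 32 that fell, 15 that rose and 7 that did not pass, and the HET comparison had 32, 14 and 8. The median log2 fold change was −0.45 in both, where that of all tested genes was 0.061 in WT and 0.059 in HET. Under library totals the split in WT was 22 lower to 21 higher and that in HET 19 lower to 22 higher. On that scale 14693 of the 19268 tested genes passed in WT, 80.52% of them as higher, and 14392 in HET, 83.32% as higher. The split of the network thus depends on the scaling, but against all genes it leaned to lower values on both scales. Later counts under library totals are to be read against these shares.

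At the entry of tryptophan, Ido2, a dioxygenase, was the only tested gene. It fell from 2.83 ± 0.38 TPM to 0.217 ± 0.095 in WT (SD, n = 8 each), by −4.15 on the log2 scale (SE 0.23, adjusted p = 6.52e-16), and by −3.73 in HET (SE 0.224, adjusted p = 6.03e-15). Tdo2, the main hepatic dioxygenase, and Ido1 were not tested for low counts, with at most 0.25 and 0.13 TPM in any library. Of 5 enzymes of the side branches, 4 fell in each genotype (29.6% and 28% of all genes did). Under library totals 3 passed as lower and 1, Kyat1, as higher in WT (0.36, adjusted p = 0.0413), and in HET 2 passed as lower, Got2 (−0.055) and Kyat3 (−0.25) no longer passing. Aadat, which makes kynurenic acid, fell from 133.3 ± 12.3 to 20.6 ± 10.4 TPM in WT (log2 fold change −3.07, SE 0.25, adjusted p = 4.35e-12), and Aldh8a1, on the branch behind Acmsd, changed by −2.21. Of 7 transport genes, 5 fell and 1 rose in each genotype, and under library totals WT had 5 lower and 2 higher and HET had 4 and 2. Cltrn (collectrin), the partner of the neutral amino acid transporter Slc6a19, changed by −2.72 in WT and Slc6a19 by −1.74, while Slc7a5, a large neutral amino acid transporter that also carries kynurenine, rose by 1.37 (SE 0.157, adjusted p = 6.05e-09).

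Of the genes that turn mononucleotides into NAD, 3 were tested. Nmnat1, the nuclear adenylyltransferase, changed by −0.63 in WT and −0.38 in HET, Nmnat3 by 0.26 and 0.37, all past the threshold. Nmrk1, the nicotinamide riboside kinase, changed by −0.51 in WT (adjusted p = 8.56e-06) and was at −0.18 in HET (adjusted p = 0.0938), which did not pass. Under library totals Nmnat1 in HET was at 0.020, and Nmrk1 was at −0.12 in WT (adjusted p = 0.219) and passed as higher in HET (0.23, adjusted p = 0.0244). All 4 genes of NADP and mitochondrial NAD supply fell in both genotypes and under both scalings. Nadk2, the mitochondrial NAD kinase, changed by −1.31 in WT (SE 0.085, adjusted p = 2.85e-14), and Nnt, the transhydrogenase, by −2.13 (SE 0.228, adjusted p = 1.54e-09). Slc25a51, the mitochondrial NAD carrier, belongs to the same 4. Nnt stands in 2 rows of the table, and the row with more counts was used.

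Among users of NAD the lists went different ways. Sirt6 rose in both genotypes, while 5 of the 7 sirtuins in WT and 6 in HET were called lower. The largest change was that of Sirt3, the main mitochondrial deacetylase, at −1.45 in WT (SE 0.157, adjusted p = 1.9e-09) and −1.34 in HET. Under library totals WT had 2 sirtuins lower and 3 higher, HET had 1 and 3, and Sirt2 turned from −0.37 to 0.025, so the small sirtuin changes depend on the scaling. Of 13 PARPs and tankyrases, 9 rose in WT and 8 in HET, while 3 fell in WT and 2 in HET, where 33.6% and 31% of all genes were higher and 29.6% and 28% lower. Under library totals 10 were higher and 1 lower in WT, and 11 higher and 0 lower in HET. On that scale 80.52% of all called genes were higher in WT and 83.32% in HET. Parp3 rose by 0.81 (SE 0.0671, adjusted p = 6.06e-12) and Parp2 by 0.66 in WT, both DNA damage-dependent enzymes, whereas Parp1, the main one, fell by 0.63 (SE 0.0519, adjusted p = 6.26e-12). Parp1 in HET was at −0.49 and, under library totals, at −0.089 (adjusted p = 0.109).

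Of 3 NAD glycohydrolases, Bst1 rose and Cd38 and Sarm1 did not pass, although under library totals Cd38 passed as higher in WT (0.55) and HET (0.38). Bst1, also known as CD157 and found on myeloid cells, went from 2.39 ± 0.45 to 13.3 ± 5.0 TPM in WT (log2 fold change 2.08, SE 0.196, adjusted p = 9.52e-11) and by 1.62 in HET (SE 0.203, adjusted p = 4.24e-08). The macrophage sums given above were mostly higher under cisplatin too, but that of HET cisplatin 6 was below all PBS libraries at 39.4 CPM. Bst1 was at 4.45 TPM or more in every HET cisplatin library and at most 3.28 in HET PBS. The part of macrophages in the Bst1 change was not tested. Of 7 genes of nicotinamide disposal and NAD breakdown, 4 were called lower in WT and 5 in HET, and Aox1 and Aox3 were called higher in both (under library totals 3 lower in WT and 4 in HET, and 2 higher in each), with Nudt12, an NAD(H) pyrophosphatase, at −1.13 in WT and Enpp3 at −1.34. All 4 listed regulators fell in both genotypes, Hnf4a by 1.34 and Ppargc1b, a coactivator of mitochondrial genes, by 0.97 in WT. Under library totals 2 of the 4 passed as lower in WT and 3 in HET. Hnf4a is also 1 of the 18 genes in the tubule score.

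**Figure D5:**
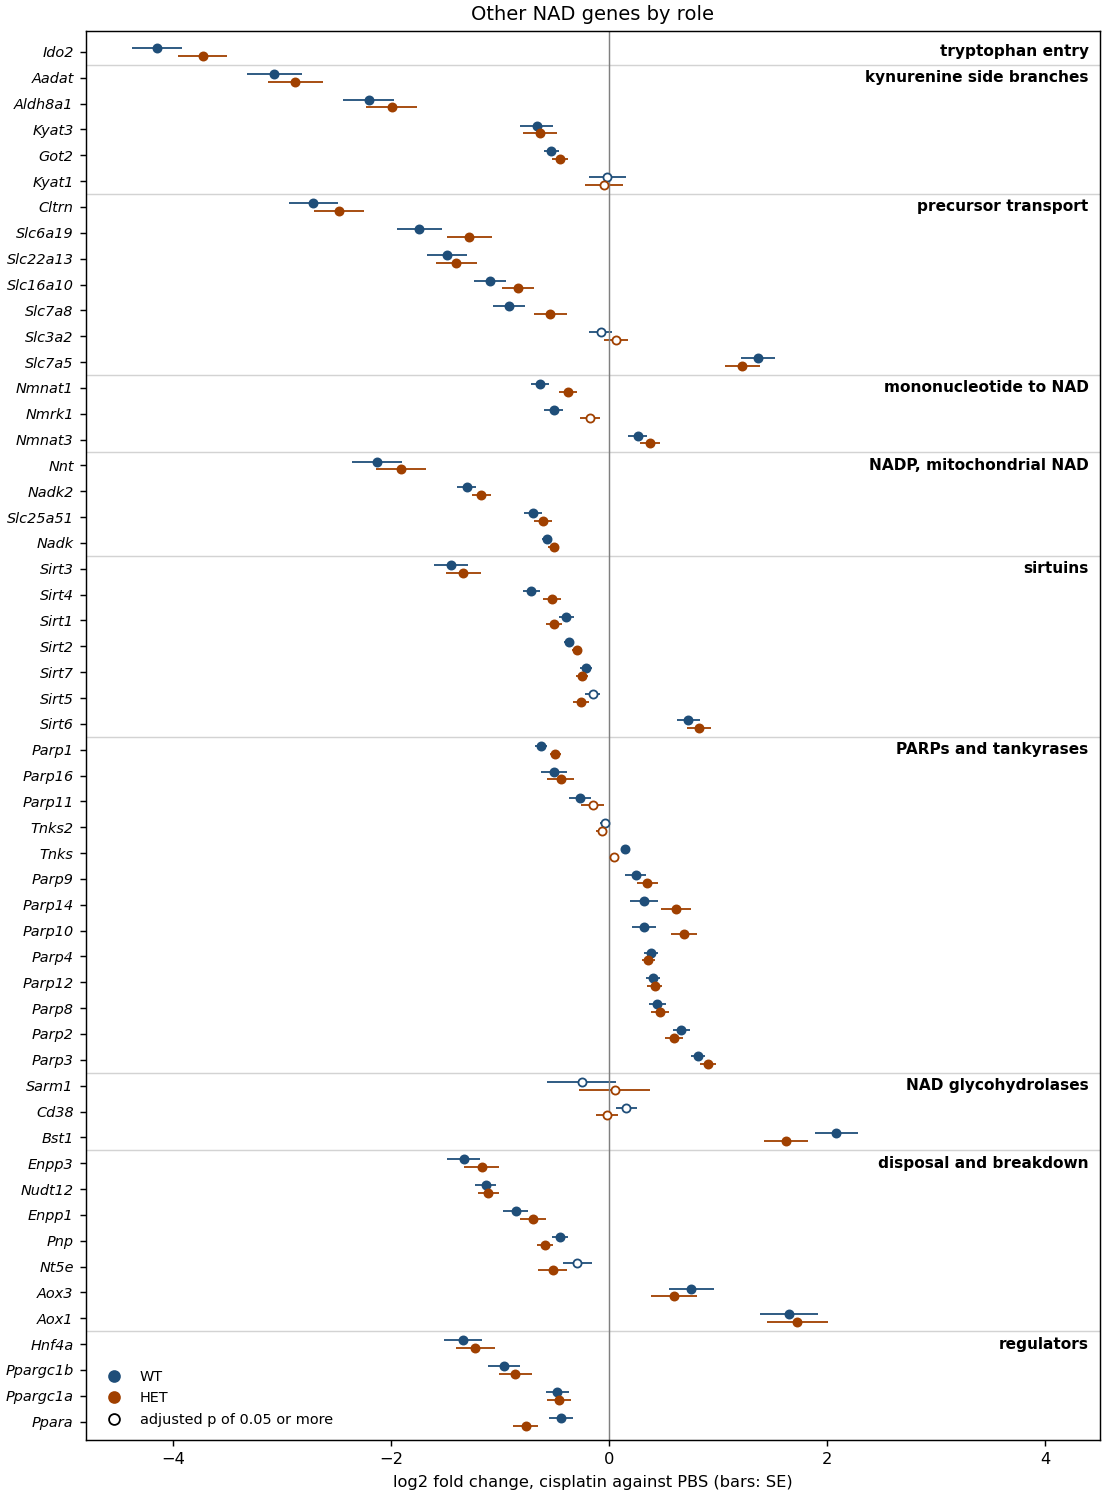
Log2 fold change of cisplatin against PBS (x axis) with SE for 54 other NAD genes grouped by role, WT in blue and HET in brown; open circles have an adjusted p of 0.05 or more. Entry, transport and mitochondrial genes lie mostly left of 0, with Ido2 at −4.15 in WT, while most PARPs and Bst1 lie right of it.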

How the data were processed

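The authors deposited 1 table that gives each library expected counts, TPM and FPKM, as the file headers and values show. Of the expected counts 12.52% are not whole, and they were rounded. FPKM were not used. The submitters' processing notes name fastp, STAR, featureCounts, GRCm38 and mm10, without versions or the strand setting. Libraries were grouped by genotype and treatment in the labels, and each carries its own animal number.

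Genes were tested by quasi-likelihood F tests of edgeR 4.0.16 under R 4.3.3, after TMM scaling and filterByExpr, with 1 model of 4 group means over 31 libraries and Benjamini-Hochberg adjustment over 19268 genes per contrast. Fold changes used a prior count of 0.125, and log2 CPM for the tubule relations a prior count of 2. CPM are on TMM-scaled library sizes. TPM deposited by the authors served for levels between genes, ratios and limma 3.58.1 on log2(TPM + 1). DESeq2 1.42.0, limma voom, other scalings and filters, animal and library numbers, and leaving out libraries were alternatives. Coordinates are from GENCODE M21. Permutation tests used SciPy 1.17.1. The script was tested on simulated data.

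Genes named are the 10, Nbl1, up to 3 genes per role list with the smallest p in WT and the most similar genes; others were named after their values were seen. The 10 genes and all lists were chosen with earlier results of these data known. Some genes of the lists, similar genes and promoter sequence are not reported here.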

Additional observations from a re-analysis of the deposited data

Results flagged for a closer look

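Of 52 sets of library values tested for a value far from the rest of its group, 7 held one. The nominal rate of about 1 in 20 is for independent, normally distributed values. These sets share libraries and genes, so that rate is not a baseline for the count. Nampt was 363.6 CPM in WT cisplatin 3, against at most 257.4 in the rest of its group, and 399.8 CPM in HET cisplatin 6, against at most 291.6. Kynu was 47.94 CPM in HET cisplatin 6, where the next library held 16.6. Afmid was 33.02 CPM in the same library, where the next held 22.21. WT cisplatin 6 held 65.14 CPM of Acmsd, where the next library held 14.53, and 34.8 CPM of Qprt, where the next held 18.98. The log2 ratio of Acmsd to Qprt was −2.45 in HET cisplatin 8, the library of its group with the lowest tubule score (5.57), where the next lowest was −1.34. WT cisplatin 6 and HET cisplatin 6 are the cisplatin libraries nearest to PBS, and their tubule scores (7.93 and 8.06) were the highest of the cisplatin libraries.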

How the results depend on the processing

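Of 905 values under alternatives other than leaving out 1 library, 890 were classed as the same, 11 no longer passed, 4 newly passed and none reversed a called direction. The class of same values includes changes of sign where neither fit passed. It also includes small moves in the counts of called genes, such as 5 in place of 7 genes lower in HET. Of 1860 values with 1 library left out, 1856 were classed as the same in this sense. The 4 that newly passed were all Nampt in HET, whose log2 fold change ran from 0.13 to 0.27 (without WT cisplatin 3, or HET cisplatin 2, 4 or 8, it passed). Within the animal number range from 600, the Acmsd to Qprt ratio in WT was −1.81 (exact permutation adjusted p = 0.0572) and the Nnmt to Nampt ratio 0.43 (adjusted p = 0.343, exact permutation), and neither passed, with fewer animals compared. With 1 TPM added, the latter was 0.041. Without the cisplatin library nearest to PBS, the relations of Naprt and Qprt to the tubule score in HET had r = 0.64 and no longer passed (adjusted exact permutation p = 0.183 and 0.174). Leaving out each library in turn, Acmsd in WT ran from −3.59 to −2.55, the former without WT cisplatin 6, and Kynu in HET from 1.34 to 1.99, the former without HET cisplatin 6. Under the filter of 1 CPM in 7 libraries Nampt in HET passed (0.25, adjusted p = 0.0472). Leaving out the 5 libraries against their label, those nearest to PBS and those lowest in tubule genes was chosen after seeing the data. No paired analysis was possible because replicate numbers follow accession order only. Nnmt, at 14 to 88 counts per library, is the gene that depth limits most.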
